A study of Homo sapiens with 6 samples.

Results

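The RAB3 GTPase cycle is the set of proteins that moves the RAB3 GTPases of secretory vesicles between an active and an inactive state. It was described here in human SH-SY5Y neuroblastoma cells through 9 genes: the GTPases RAB3A, RAB3B, RAB3C and RAB3D, the GTPase-activating pair RAB3GAP1 and RAB3GAP2, the exchange factor MADD, the RAB3A-binding exchange factor RAB3IP, and the effector RPH3A. Members were taken as every probe set of the array whose annotation names exactly 1 gene, that gene being among the 9. They are 23 probe sets of 9 genes, out of 44988 such probe sets of 18132 genes. The family was selected on this contrast, after RAB3GAP2 had stood among the lower genes in earlier results of these arrays, so the endosulfan against control differences of its members are given as a description. No member is tested on its own, and counts of calls among members stand only beside the share over all probe sets.

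Cells exposed to endosulfan, an organochlorine insecticide, at 3 µM for 24 h, a dose the labels set as a fraction of the lethal concentration, gave 3 arrays. Control cells, for which no vehicle is named, gave 3 arrays. The treatment text is the same for both groups and names endosulfan, so the groups were taken from the agent label. The sample titles divide the arrays in the same way. Both groups are the same line, SH-SY5Y, derived from 1 neuroblastoma, grown in MEM and F12 with fetal bovine serum, and the labels call the arrays biological replicates without naming cultures, passages or days. Adjusted p-values therefore rest on the variation between these arrays, which may be partly technical.

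RAB3 proteins sit on synaptic vesicles and dense-core granules. In the GTP-bound state they recruit effectors such as rabphilin and the RIM proteins and so take part in docking and regulated release. An exchange factor loads GTP, a GTPase-activating complex of a catalytic subunit (RAB3GAP1) and a non-catalytic subunit (RAB3GAP2) ends the active state, and GDP dissociation inhibitors return the protein to the cytosol. SH-SY5Y cells are catecholaminergic and hold dense-core granules, which makes regulated release a known feature of the line.

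Each value is a log2 RMA value of a probe set, a level relative to the rest of its array, and differences are endosulfan minus control on that log2 scale. Probe sets bind with different strength. Their levels are therefore set against each other only to number them by brightness and to place them within the array, mostly against its median. Such a place is a rough guide and not an amount of transcript. The probe sets of a gene are numbered by brightness, set 1 being the brightest over the 6 arrays. In RNA of whole cultures, fewer cells that carry a transcript and less of it per cell cannot be told apart.

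Of the adrenergic neuroblastoma markers 9 of 10 were measured, and all 9, among them HAND2, PHOX2A and DBH, lay above the array median on every array. The summed log2 level of these 9 markers was 96.2 to 96.9 in endosulfan arrays and 98.5 to 99.9 in control arrays, lower in every endosulfan array. Much of that gap lay in ISL1 and STMN2. GATA3 was also lower in every endosulfan array, at 11.53 to 11.64 against 11.86 to 12.11 in control arrays. PHOX2A, HAND2, DBH, TH, CHGA and CHGB overlapped between the groups. The 3 haematopoietic markers measured lay below the median on every array, as did EPCAM, CDH1, KRT5 and CDH5, whereas KRT19, PECAM1, VWF, KDR, SOX10 and GFAP were above it on every array. Position against the median therefore did not set the line apart from endothelial or glial cells. The array medians lay between 4.89 and 4.94. The bacterial poly-A transcripts that are added to the RNA before labelling differed in level. Their mean was 7.81, 7.73 and 8.80 in endosulfan 1 to 3, against 6.13, 7.73 and 5.84 in control 1 to 3. Control 2 was thus level with endosulfan 1 and 2 on this measure. Control 1 and control 3 lay below every endosulfan array, so the poly-A level largely followed the groups. In the differences given below with this level as a covariate, its part and that of treatment cannot be told apart. Such differences are given without an SE.

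The promoter windows of 3 members are shown for orientation: RAB3GAP2, on which the family was chosen, its partner subunit RAB3GAP1, and RAB3A, the main RAB3 of brain synapses. The sequences are from RefSeq, build GRCh38.p14, each 300 bases that run from 250 bases before the gene's start to 50 bases from it on, written 5′ to 3′ on the gene's strand. RAB3GAP2 is chr1:220272404-220272703 on the minus strand, RAB3GAP1 is chr2:135052042-135052341 on the plus strand and RAB3A is chr19:18203993-18204292 on the minus strand. Capitals mark the motif matches described after the sequences.
RAB3GAP2: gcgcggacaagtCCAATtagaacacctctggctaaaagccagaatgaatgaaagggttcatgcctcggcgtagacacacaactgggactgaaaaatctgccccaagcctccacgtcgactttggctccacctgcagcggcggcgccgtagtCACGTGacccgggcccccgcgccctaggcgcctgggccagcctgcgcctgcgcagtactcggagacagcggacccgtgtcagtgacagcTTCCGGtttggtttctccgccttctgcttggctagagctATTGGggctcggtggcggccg
RAB3GAP1: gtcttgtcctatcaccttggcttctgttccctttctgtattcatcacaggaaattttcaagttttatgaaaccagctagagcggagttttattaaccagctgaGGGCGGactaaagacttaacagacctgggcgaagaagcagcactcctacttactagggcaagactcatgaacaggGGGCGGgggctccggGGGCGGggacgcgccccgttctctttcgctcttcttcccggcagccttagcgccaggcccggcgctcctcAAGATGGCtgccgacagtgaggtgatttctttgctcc
RAB3A: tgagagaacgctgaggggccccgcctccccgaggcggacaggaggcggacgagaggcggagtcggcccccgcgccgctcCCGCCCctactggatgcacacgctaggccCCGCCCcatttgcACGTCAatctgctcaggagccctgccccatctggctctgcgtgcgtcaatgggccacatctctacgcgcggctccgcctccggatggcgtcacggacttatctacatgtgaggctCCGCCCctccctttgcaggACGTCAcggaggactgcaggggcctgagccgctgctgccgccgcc

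Motifs were searched as exact letters on both strands, and were chosen with these sequences in view. Each match is a description of letters, not a binding site. The RAB3GAP2 window held an E-box, CACGTG, whose first base is the one 99 before the start. It also held an ETS core, CCGGAA on the opposite strand, 10 bases before the start, and a CCAAT box on each side of the start. Over all 35116 windows of this length, 7.26% held the E-box, 17.2% the ETS core and 34.6% a CCAAT box. The RAB3GAP1 window held 3 copies of the SP1 GC box GGGCGG, a motif in 45.0% of all windows, and a YY1 core, AAGATGGC, in 2.89%. The RAB3A window held 3 GC boxes and 2 copies of the CRE core ACGTCA, which 7.98% of all windows held. The EGR1 motif GCGGGGGCG, which can overlap a GC box, was in 0 of the 16 windows of the 9 genes and in 5.07% of all windows. The 3 windows had a GC content of 62.3%, 54.7% and 69.7% in the order printed, against a median of 58.7% over all windows.

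Across the 23 probe sets, values changed little beside 2 probe sets of RAB3GAP2. The differences ran from -1.31 to 0.31, with a median of -0.01, against a median of 0.05 over all 49293 probe sets tested. There were 12 probe sets below 0 and 11 above. With limma and Benjamini-Hochberg adjustment over all probe sets, 0 of the 23 were called higher and 0 lower, where 0.00811% of all probe sets were called higher and 0% lower. At an unadjusted p below 0.05, 3 were lower and 0 higher, against 9.21% and 6.3% of all probe sets. Among the 3 were sets 1 and 3 of RAB3GAP2, the gene on which the family was chosen, so their p-values are no test of them. The other was RAB3IP set 1, with groups that overlapped. The groups did not overlap in 4 of the 23. Of these, 3 lay lower in endosulfan arrays, where 9.24% of all probe sets did, and 1 lay higher, where 11.5% of all did. Since the family was selected on this contrast, nothing is read from these counts or from the probe sets named with them.

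**Figure D1:**
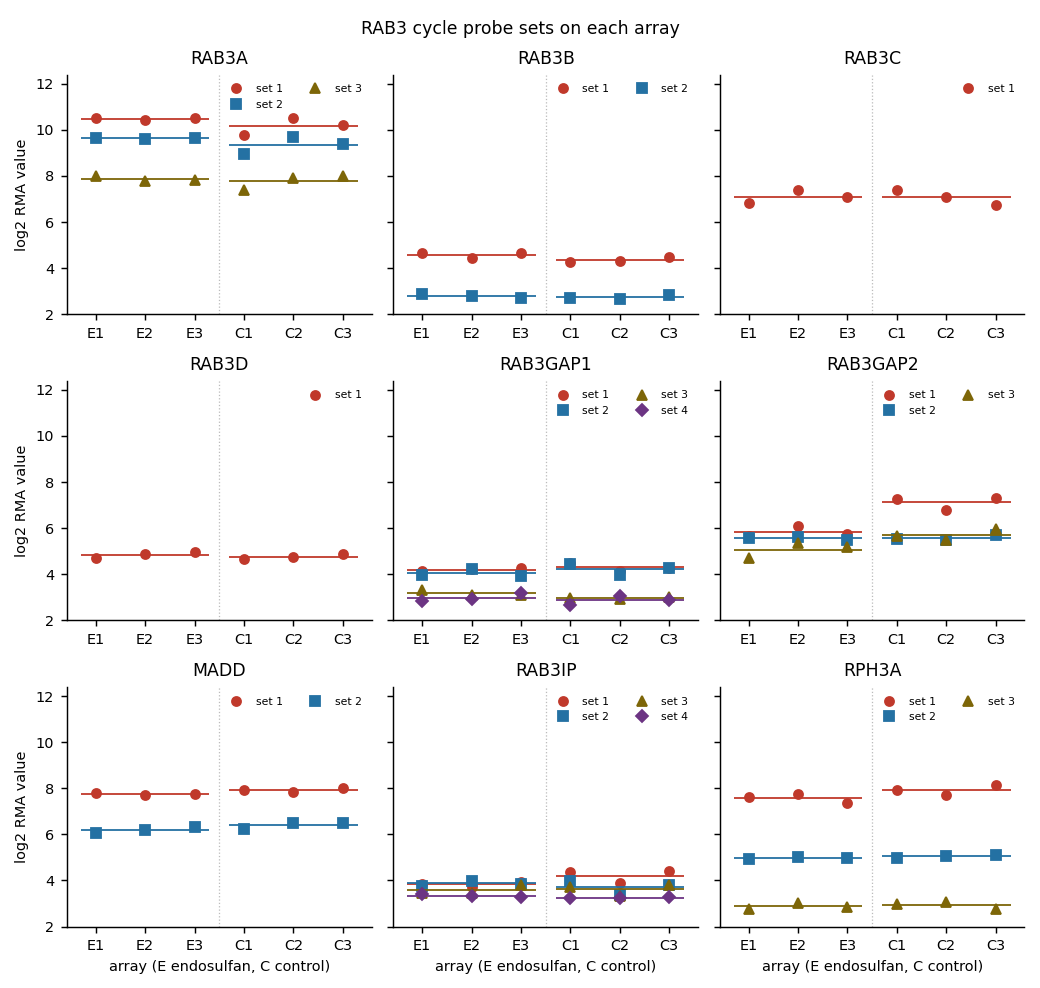
Log2 RMA value of each of the 23 RAB3 cycle probe sets on the 3 endosulfan arrays (E) and the 3 control arrays (C), 1 panel per gene, with lines at the group means. RAB3GAP2 set 1 lies at 5.67 to 6.08 in endosulfan arrays and at 6.80 to 7.32 in control arrays, and most other probe sets lie at about the same height on both sides.

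RAB3A, the RAB3 of most synaptic vesicles, had 3 probe sets, all on the higher side in endosulfan arrays with groups that overlapped. Set 1 (11723977_at) was at 10.53, 10.45 and 10.50 in endosulfan 1 to 3, against 9.77, 10.53 and 10.23 in control 1 to 3. The endosulfan arrays lay within 0.09 of each other and control 2 lay level with the highest of them, so the difference of 0.31 ± 0.18 (SE) came with control 1 and control 3. Without control replicate 1 it was 0.11, and with the poly-A level as a covariate it was 0.00. Set 2 (11723978_x_at), whose suffix by the maker's convention marks probes that may match other transcripts, was at 9.66, 9.59 and 9.63 in endosulfan arrays and at 8.94, 9.68 and 9.37 in control arrays. Set 3 (11748842_a_at) was at 8.02, 7.79 and 7.82 in endosulfan arrays and at 7.39, 7.92 and 7.99 in control arrays. In all 3 probe sets control 1 was the lowest array. Control 3, with the lowest poly-A level of all, was the next highest after endosulfan 1 in set 3. Without control replicate 1 set 2 was at 0.10 and set 3 at -0.08.

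RAB3B, known from endocrine and epithelial secretion, was below the array median on every array in both of its probe sets. Set 1 (11749920_a_at) was at 4.65, 4.42 and 4.67 in endosulfan arrays and at 4.25, 4.29 and 4.48 in control arrays, a difference of 0.24 ± 0.12 (SE) in which control 3 lay above endosulfan 2. Set 2 (11736461_at) was at 2.87, 2.79 and 2.73 in endosulfan arrays and at 2.69, 2.68 and 2.84 in control arrays. For values this dim, scanner calls of signal above background were not used here, so presence of the transcript was not decided.

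RAB3C is a RAB3 of neurons and endocrine cells. Its 1 probe set (11735055_at) was at 6.84, 7.37 and 7.11 in endosulfan arrays and at 7.37, 7.09 and 6.75 in control arrays. The ranges of the groups nearly coincided, and the difference was 0.04 ± 0.19 (SE). RAB3D, known from exocrine glands and mast cells, lay near the array median (11715122_at), at 4.72, 4.88 and 4.95 in endosulfan arrays and at 4.66, 4.74 and 4.87 in control arrays. Its groups overlapped too, with a difference of 0.09 ± 0.11 (SE). The 7 probe sets of the GTPases all had groups that overlapped. Their differences, of 0.04 to 0.31, were above 0, as were those of 29633 of all 49293 probe sets. The sign turned in RAB3C without control replicate 3, at -0.13, and without endosulfan replicate 2, at -0.10, and with the poly-A level as a covariate RAB3A set 2 was at -0.01 and RAB3C at -0.02.

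MADD, a DENN-domain protein that loads RAB3 with GTP, had both of its probe sets on the lower side. Set 1 (11718817_a_at) was at 7.80, 7.72 and 7.74 in endosulfan arrays, against 7.91, 7.86 and 8.01 in control arrays. Every endosulfan array lay below every control array, by a small margin, and the difference was -0.17 ± 0.10 (SE). Set 2 (11735624_a_at) was at 6.06, 6.21 and 6.31 in endosulfan arrays and at 6.22, 6.48 and 6.49 in control arrays. Here endosulfan 3 lay above control 1, so the groups overlapped, with a difference of -0.20 ± 0.12 (SE). The MADD probe sets thus differed by about the same amount. With the poly-A level as a covariate they were -0.09 and -0.32.

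RAB3IP, also called Rabin8, binds RAB3A and is best known as the exchange factor of RAB8 in vesicle traffic to cilia. All 4 of its probe sets were below the array median on every array, and 2 differences were below 0 and 2 above. Set 1 (11728831_a_at) was at 3.83, 3.73 and 3.92 in endosulfan arrays and at 4.36, 3.87 and 4.39 in control arrays. Control 2 lay within the endosulfan range, and the difference was -0.38 ± 0.16 (SE). Set 2 (11728047_a_at) was at 3.78, 3.98 and 3.85 in endosulfan arrays and at 3.99, 3.37 and 3.80 in control arrays. The remaining probe sets (11758481_s_at and 11728830_a_at) had differences of -0.04 and 0.08. With the poly-A level as a covariate, sets 1 and 2 were at -0.11 and 0.49.

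RAB3GAP1, the catalytic subunit of the GTPase-activating complex, had 4 probe sets, all below the array median on every array. Set 1 (11721106_a_at) was at 4.13, 4.24 and 4.26 in endosulfan arrays and at 4.48, 4.15 and 4.27 in control arrays, a difference of -0.09 ± 0.12 (SE). Set 2 (11721105_s_at) was at 3.98, 4.25 and 3.92 in endosulfan arrays and at 4.43, 3.98 and 4.27 in control arrays. The groups overlapped in both. Set 3 (11750261_a_at) was at 3.30, 3.10 and 3.12 in endosulfan arrays and at 2.96, 2.93 and 3.02 in control arrays, the 1 member probe set whose groups did not overlap in the higher direction. Its difference was 0.20 ± 0.10 (SE), at a level near the bottom of the array. Set 4 (11761872_at) had a difference of 0.10 ± 0.14 (SE) with overlapping groups. The mean over the 4 probe sets differed by 0.01.

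RAB3GAP2, the non-catalytic subunit of the same complex, held the largest differences of the family and also one of the smallest. Set 1 (11757739_s_at) was at 5.67, 6.08 and 5.73 in endosulfan 1 to 3, against 7.29, 6.80 and 7.32 in control 1 to 3. All endosulfan arrays lay below all control arrays, with means of 5.83 ± 0.22 and 7.14 ± 0.29 (SD, n = 3 each), a difference of -1.31 ± 0.18 (SE) or 2.48-fold lower. Set 3 (11721949_s_at) was at 4.70, 5.35 and 5.17 in endosulfan arrays, against 5.64, 5.51 and 5.97 in control arrays. These groups did not overlap either, endosulfan 2 and control 2 being nearest to each other, and the difference was -0.64 ± 0.19 (SE) or 1.55-fold lower. Set 2 (11721948_a_at) was at 5.58, 5.62 and 5.49 in endosulfan arrays and at 5.54, 5.47 and 5.71 in control arrays. Its groups overlapped fully and its difference was -0.01 ± 0.11 (SE).

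**Figure D2:**
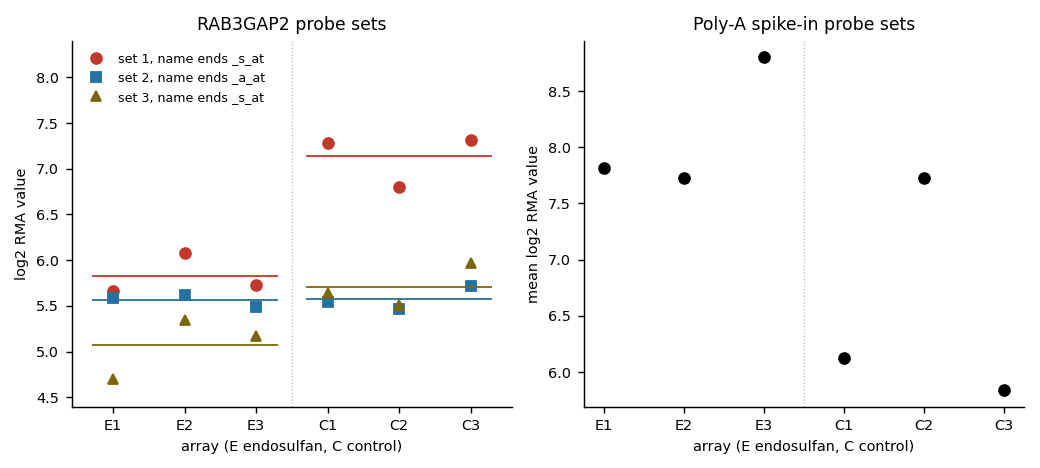
Left, log2 RMA values of the 3 RAB3GAP2 probe sets on endosulfan arrays (E) and control arrays (C) with lines at the group means; right, mean log2 value of the poly-A spike-in probe sets on the same arrays. Sets 1 and 3 are lower on every endosulfan array and set 2 is not, while control 2 has the spike-in level of endosulfan 1 and 2.

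Both RAB3GAP2 probe sets that were lower have names that end in _s_at, which by the maker's naming convention, not by the files used here, marks probes that may match transcripts of more than 1 gene. The annotation names RAB3GAP2 alone for both. The probe set without that ending was the one at -0.01. The other member probe sets with that ending, RAB3GAP1 set 2 and RAB3IP set 3, were at -0.18 and -0.04 with groups that overlapped. A further probe set that names a member together with other genes was not used, by the rule for members. The mean of the 3 probe sets differed by -0.65. Their differences spanned 1.30, a span reached by 25 of the 3173 genes with 3 probe sets, or 0.788%, where the median span was 0.25. That share is a description, since RAB3GAP2 was chosen for a large difference. Which transcripts each probe set covers was not tested.

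The poly-A level and a GAPDH measure differed between the groups, as RAB3GAP2 set 1 did, so they cannot be told apart from treatment. The mean poly-A level was 8.11 ± 0.60 in endosulfan arrays and 6.57 ± 1.02 in control arrays (SD, n = 3 each), and the 3′ minus 5′ difference of GAPDH, a sign of RNA integrity, was 0.84 ± 0.04 and 0.75 ± 0.06 (log2, SD, n = 3 each). With the poly-A level as a covariate the difference of set 1 was -0.92, that of set 3 was -0.45 and that of set 2 was 0.15. Between arrays with like poly-A levels, set 1 was at 5.67 and 6.08 in endosulfan 1 and 2, against 6.80 in control 2. On the same arrays set 3 was at 4.70 and 5.35 against 5.51, and set 2 at 5.58 and 5.62 against 5.47. These values rest on 1 control array, and the part of the poly-A level was not tested by them. Leaving out any 1 array gave differences of -1.48 to -1.22 for set 1 and of -0.77 to -0.45 for set 3. The part of RNA integrity in the difference was not tested.

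RPH3A, rabphilin, binds GTP-bound RAB3 and calcium on vesicles, and its 3 probe sets were all on the lower side with groups that overlapped. Set 1 (11740204_a_at) was at 7.63, 7.76 and 7.37 in endosulfan arrays, against 7.92, 7.70 and 8.12 in control arrays. Endosulfan 2 lay above control 2, and the difference was -0.33 ± 0.15 (SE). It was 0.02 with the poly-A level as a covariate. Sets 2 and 3 (11740205_a_at and 11749669_a_at) each differed by -0.06, and set 2 was at 4.95, 5.02 and 4.97 in endosulfan arrays and at 4.95, 5.06 and 5.12 in control arrays.

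**Figure D3:**
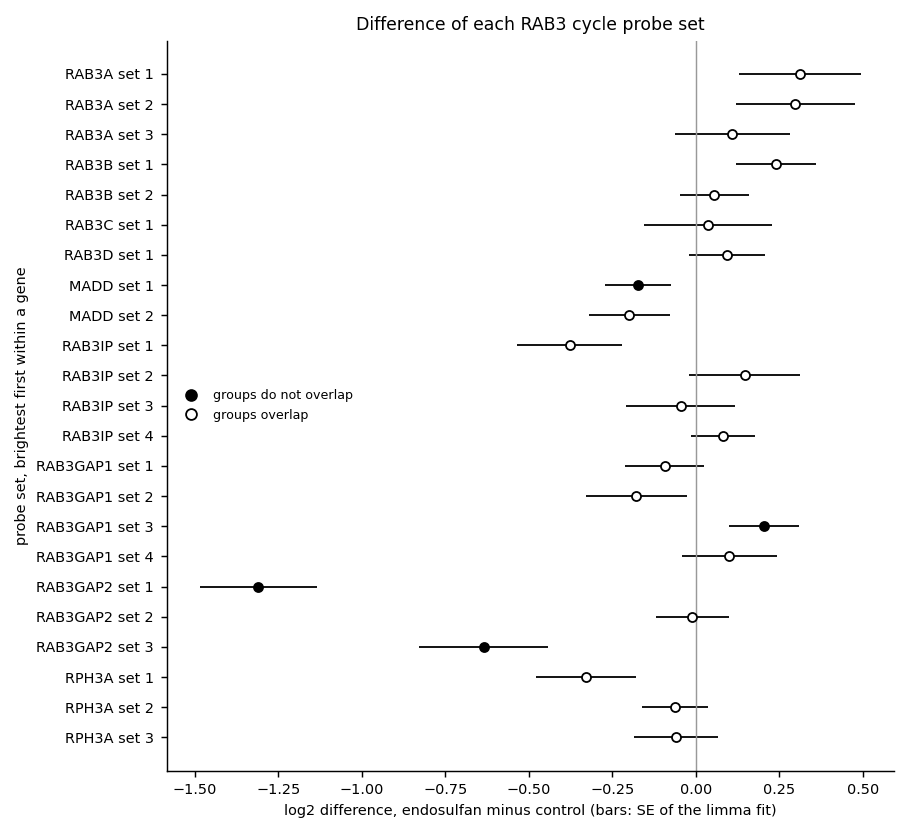
Log2 difference, endosulfan minus control, of each RAB3 cycle probe set with the SE of the limma fit over all probe sets; filled points have groups that do not overlap. RAB3GAP2 set 1 at -1.31 and set 3 at -0.64 stand left of the other 21 probe sets, which lie between -0.38 and 0.31.

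The standard deviation within groups, pooled over both, was 0.05 to 0.29 over the 23 probe sets with a median of 0.19, so differences such as those of RAB3C, RAB3D and RAB3GAP1 set 1 were smaller than it. Of the 23 probe sets, 10 were above the array median on all 6 arrays, 11 on none and 2 on some. The 10 belonged to RAB3A, RAB3C, RAB3GAP2, MADD and RPH3A.

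The gene patterns most like RAB3GAP2 set 1 were sought over the 6 arrays with the brightest probe set of each of 18131 other genes. Likeness was the root-mean-square difference after each profile was centred on its own mean. The nearest was the histone demethylase gene KDM7A, at 0.11, followed by the chaperone HSP90AA1 at 0.14, the RNA-binding protein PUM2 at 0.15, the adhesion molecule NRCAM at 0.16 and the serine synthesis enzyme PSAT1 at 0.16. KDM7A was at 4.58, 5.03 and 4.75 in endosulfan arrays and at 6.04, 5.50 and 6.12 in control arrays. All 5 had control 2 as the lowest control array, as RAB3GAP2 set 1 did, and in 4 of the 5, NRCAM being the exception by a narrow margin, endosulfan 2 was the highest endosulfan array. No other member was near: RAB3IP, the closest, was at 0.50 and ranked 2079, and RAB3A was at 0.90 and ranked 16830. With 6 arrays that fall into 2 groups, likeness of this kind is mostly likeness of the group difference, and it is given as a description.

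**Figure D4:**
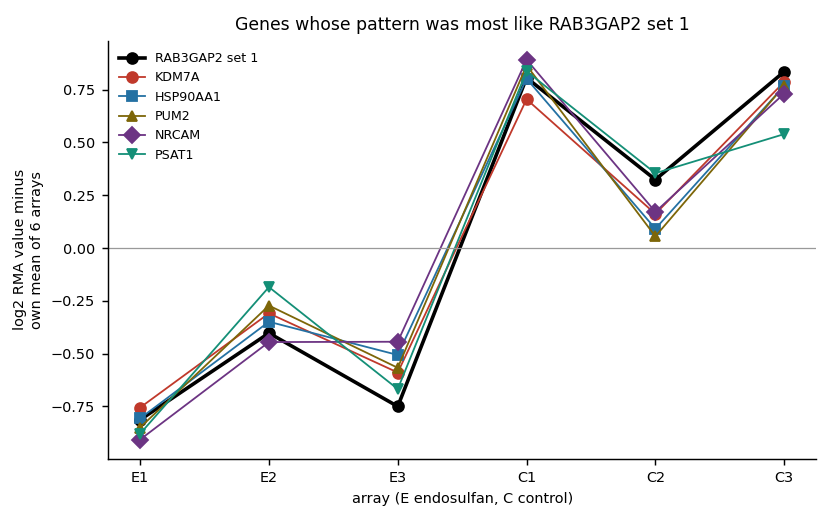
Log2 RMA value minus the gene's own mean over the 6 arrays, for RAB3GAP2 set 1 and the 5 genes nearest to it, on endosulfan arrays (E) and control arrays (C); lines only join the points of a gene. All 6 profiles are below 0 on every endosulfan array and above 0 on every control array, with control 2 the lowest control.

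Other genes of the pathway were taken from 3 lists. The list of prenylation and recycling factors, which attach the lipid anchor of RAB proteins and move them between membrane and cytosol, had 6 of 8 genes measured in 18 probe sets. With limma and Benjamini-Hochberg adjustment over all probe sets, 0 were called higher and 0 lower. Before adjustment, 2 had a p below 0.05 on the higher side and 6 on the lower, where 6.3% and 9.21% of all probe sets did. Of the 6, 5 were probe sets of GDI2, and the last was 1 of 4 of CHML, at -0.64. CHML, an escort protein for prenylation, is named here after its values were seen. Its brightest probe set was at -0.31 with groups that overlapped. Its others were on the higher side, at 0.15 with groups that overlapped and at 0.06 with groups that did not. Groups did not overlap in 4 probe sets on the higher and 5 on the lower side, where 11.5% and 9.24% of all did, and the median difference was -0.15, against 0.05 over all probe sets. The median was 0.03 without endosulfan replicate 1 and 0.02 with the poly-A level as a covariate.

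GDI2, a GDP dissociation inhibitor that keeps inactive RAB proteins soluble, set the lower side of that list, with all 5 of its probe sets between -1.53 and -1.13. Its brightest probe set was at 7.91, 9.61 and 8.76 in endosulfan arrays, against 11.37, 9.64 and 9.88 in control arrays. The groups did not overlap, but endosulfan 2 and control 2 nearly met, and the difference was -1.53 ± 0.53 (SE; limma, adjusted p = 0.256). Without control replicate 1, the highest array, it was -0.996, and with the poly-A level as a covariate it was -0.98. RABGGTA, the alpha subunit of the enzyme that attaches the lipid, was at 8.46, 8.30 and 8.51 in endosulfan arrays and at 7.82, 8.38 and 8.13 in control arrays, and all 4 of its probe sets were on the higher side. Its brightest was at 0.31 with groups that overlapped, at 0.17 without control replicate 1 and at 0.02 with the poly-A level as a covariate. RABGGTA sets 2 and 4, at 0.46 and 0.38, had groups that did not overlap. They were the 2 probe sets of the list on the higher side at an unadjusted limma p below 0.05. RABGGTB, the beta subunit, had a difference of -0.51 (limma, adjusted p = 0.446). It was -0.22 without endosulfan replicate 1 and -0.03 with the poly-A level as a covariate. RABIF, a chaperone of nucleotide-free RAB proteins, had a difference of 0.24 with groups that did not overlap (limma, adjusted p = 0.335), and its other probe set was at 0.01.

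**Figure D5:**
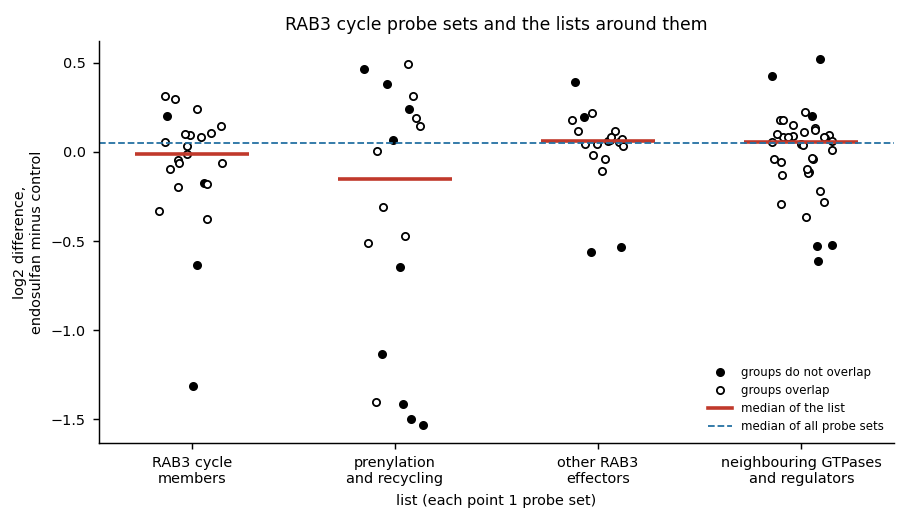
Log2 difference, endosulfan minus control, of each probe set of the RAB3 cycle members and of the 3 lists around them; red bars are list medians and the dashed line is the median of all probe sets. The lowest points of the prenylation and recycling list, at -1.53 to -1.13, are the 5 probe sets of GDI2.

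The list of other RAB3 effectors had all 6 genes measured in 19 probe sets, with 0 called in each direction, 1 higher and 2 lower at an unadjusted p below 0.05 with limma, and a median of 0.06. The share of all probe sets was 6.3% higher and 9.21% lower, and both lower ones were probe sets of RIMS2. RIMS2, an active zone protein that binds RAB3 at release sites, was at 4.28, 4.13 and 4.27 in endosulfan arrays, against 4.78, 4.48 and 5.03 in control arrays. The groups did not overlap, and the difference was -0.53 ± 0.15 (SE; limma, adjusted p = 0.22), or -0.27 with the poly-A level as a covariate. The next probe set of RIMS2 was at -0.56 and the last at 0.04, all of them below or near the array median. RPH3AL, or Noc2, which resembles the RAB3-binding part of rabphilin, was at 6.52, 6.39 and 6.55 in endosulfan arrays and at 5.71, 6.32 and 6.25 in control arrays. The difference was 0.39 (limma, adjusted p = 0.32), and its other 3 probe sets were at 0.05 to 0.08 with groups that overlapped. It was 0.20 without control replicate 1 and 0.18 with the poly-A level as a covariate. SYTL4, granuphilin of dense-core granules, and SYTL5 were dim, with differences of 0.20 and 0.22 on their brightest probe sets and of -0.10 and -0.04 on their others. SYTL5 was at 0.04 without endosulfan replicate 1.

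The list of GTPases and regulators that share factors with the RAB3 cycle had 9 genes in 37 probe sets, again with 0 called in each direction. Before adjustment, 2 had a limma p below 0.05 on the higher side and 3 on the lower, groups did not overlap in 3 on each side, and the median was 0.06. Over all probe sets the shares were 6.3% and 9.21% before adjustment, and 11.5% and 9.24% without overlap. RAB3IL1, an exchange factor related to RAB3IP, was at 7.95, 7.63 and 7.72 in endosulfan arrays and at 7.11, 7.56 and 7.35 in control arrays. Every endosulfan array was above every control array, with a difference of 0.43 ± 0.15 (SE; limma, adjusted p = 0.256), or 0.25 with the poly-A level as a covariate. RAB18, for which the RAB3GAP complex acts as exchange factor, had 10 probe sets with differences from -0.61 to 0.18. Its brightest was at -0.29 with groups that overlapped, or -0.04 without endosulfan replicate 1 and -0.07 with the poly-A level as a covariate. RAB18 sets 2 and 3, at -0.53 and -0.61, were lower with groups that did not overlap and an unadjusted limma p below 0.05. The groups of all its other probe sets overlapped. RAB8A, the GTPase that RAB3IP activates, was at -0.22, or -0.09 without control replicate 1 and 0.11 with the poly-A level as a covariate. RAB27B, another GTPase of secretory granules, was dim and at 0.22, or 0.08 without control replicate 1. TBC1D20, a GTPase-activating protein whose gene, like those of RAB18 and the RAB3GAP subunits, is mutated in Warburg micro syndrome, is named here after its values were seen. Its brightest probe set was at -0.12 with groups that overlapped, and its others were at -0.52 and 0.52 with groups that did not.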

How the data were processed

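The deposited values of the 6 arrays are log2 expression values, made by the authors with RMA in Affymetrix Expression Console, per the submitters' processing notes. RMA corrects background, equalises array distributions and summarises probes, so a shift shared by most transcripts is removed. Of the authors' software, no version or option is stated in these sources. Of 49395 rows, 102 control probe sets were set aside and 49293 were tested. The platform annotation names 1 gene for 44988 probe sets, several for 1832 and none for 2473. All 9 member genes were found in RefSeq under the same symbol.

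Endosulfan minus control was fitted with limma 3.58.1 (lmFit, eBayes) in R 4.3.3, two-sided, Benjamini-Hochberg over all probe sets, threshold 0.05. No pair among the 15 pairs of arrays was identical, and their number limits the precision. The fit was tested on simulated data with known changes and independent noise for each probe set. Such data hold no array-wide difference, such as that of the poly-A level, so its effect on the fit was not tested. Groups came from the agent label and replicate numbers from the titles. The members, lists and tests were chosen with earlier results of these data known. All member probe sets are described. Values are given for up to 4 genes per list by smallest p of each gene's brightest probe set. CHML and TBC1D20 were added to these after their values were seen. By likeness 5 genes are named, uncharacterised loci passed over. Alternatives were a replicate block, quantile normalization, median centring, a filter on dim probe sets, trended robust moderation, the poly-A level as a covariate, gene means, probe sets by suffix and leaving out each array. Figures used matplotlib 3.10.9 in Python 3.11.15.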

Additional observations from a re-analysis of the deposited data

How the results depend on the processing

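With limma and Benjamini-Hochberg adjustment, 0 probe sets of the 3 lists were called under the block, both rescalings, the filter, trended moderation, the covariate and each left-out array; gene means and probe sets by suffix were run for members only. The counts at an unadjusted p below 0.05 stand beside each list above. Over all probe sets the count called higher, 4, was 0 with the replicate number as a block and 0 with the poly-A level as a covariate, and 0 to 4 with 1 array left out; the count called lower, 0, was 0 to 3 with 1 array left out. The median of the prenylation and recycling list, -0.15, was 0.023 with the poly-A level as a covariate and -0.288 to 0.0314 with 1 array left out. The replicate numbers were not taken to pair the arrays, since deviations of same-numbered arrays correlated at -0.51, -0.40 and 0.05 over probe sets. So few arrays cannot show whether same-numbered ones shared a culture or day. Of the 23 member differences, 12 moved by more than the spread within groups and 8 changed sign with the poly-A level as a covariate. RAB3GAP2 set 1 was between -1.31 and -1.26 with quantile normalization, median centring, the filter on dim probe sets and trended moderation, and at -0.65 as the mean of its probe sets.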
